A study of Mus musculus with 12 samples.

Results

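The 10 genes described here encode the IL-6 receptor, the kinases and transcription factor it signals through, SOCS family inhibitors, and a kinase that cytokine signals induce. They are Il6ra, Il6st, Jak1, Jak2, Stat3, Socs1, Socs2, Socs3, Cish and Pim1. They were chosen by symbol, as probe sets annotated to a single one of these genes, and all 10 were measured, by 28 of 34945 single-symbol probe sets. Each gene is represented by its brightest probe set over all arrays, its main probe set, among 18193 genes compared. The cells were CD4+ CD25- T cells of C57B/6J mice. CD25- names cells without the IL-2 receptor alpha chain at the surface. All cultures were stimulated through CD3 and CD28 with antibodies, and TGFb and IL-6 were in the medium of every group. In these stimulated cultures the transcript of that chain, Il2ra, had group means of 12.3 to 12.7 log2 intensity. Halofuginone (HF), a derivative of the alkaloid febrifugine that inhibits prolyl-tRNA synthetase, was given at 10 nM to some cultures, and MAZ1310, an inactive derivative of it, at 10 nM to the others. RNA was taken at 3 h or 6 h, with 3 arrays for each compound and time, called biological replicates in the labels. The labels give no untreated culture and no culture without IL-6, and they do not say which animals or cultures the replicates came from. A p-value here therefore reflects only the spread among these 12 arrays, which may be technical.

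IL-6 binds the receptor chain encoded by Il6ra, and this pair recruits gp130, the signalling chain encoded by Il6st and shared by the whole cytokine family. Janus kinases bound to gp130 then phosphorylate STAT3, which enters the nucleus and switches on genes that include its own inhibitor, Socs3. In helper T cells, STAT3 with TGFb signalling starts the Th17 program, and SOCS3 limits it by blocking gp130 and its kinases.

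Array medians lay between 6.60 and 6.68 log2 intensity, and arrays of a group correlated at r = 0.992 to 0.997 over genes. Of 9 measured T cell markers, all lay between 9.56 and 12.4 in mean log2 intensity. By limma, 7 of these 9 were lower with HF at 6 h, where 11.7% of all genes were called lower. Among the 7 were Cd28 (-0.78, adjusted p = 0.000249), Thy1 (-0.89) and Cd4 (-0.42). At 3 h limma called 0 of the 9. The log2 of the summed intensities of the 9, in which the brightest weigh most, was 14.5 to 14.6 with MAZ1310 and 14.0 to 14.2 with HF at 6 h. Of 23 measured markers of B, myeloid, CD8 T or NK, MHC class II presenting and erythroid cells, limma called 0 at 6 h, with 1 at an unadjusted p under 0.05. The 4 MHC class II markers had mean log2 intensities of 7.72 to 8.94. The log2 of their summed intensities varied within groups, from 9.76 to 10.7 with MAZ1310 and 9.68 to 10.3 with HF at 6 h. In bulk RNA, fewer cells of a type and less RNA per cell cannot be told apart. The actin control's 3' minus 5' signal, which is higher in degraded RNA and is called the actin difference below, ran from 0.737 to 1.01 with MAZ1310 and 0.890 to 1.37 with HF at 6 h, and from 0.810 to 1.25 and 0.999 to 1.55 at 3 h. The part of the T cell markers in the results was not tested; the actin difference entered as a covariate in an alternative fit.

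STAT dimers bind the palindrome TTCNNNGAA. It was searched, with a form that has 1 more N and with the ATF4 motif TGATGNAA, on both strands of RefSeq promoters (build GRCm38.p6, 250 bases before to 50 after the start), in which 9 of the 10 genes were listed. Only Socs3 and Cish, of these 9, held TTCNNNGAA, which 8.30% of 32851 promoters hold; the other motifs, held by 6.95% and 3.97%, were in 0 of the 9. Cish held it at 2 places, as 0.457% of promoters do. The stretches are shown with the palindromes in capitals, from 250 bases before to 20 after the start, beside that of Il6st, which was higher with HF at 6 h by about as much as Socs3 and has no match. Socs3 lies at chr11:117969347-117969616, minus strand, with its match 154 bases before the start. Cish lies at chr9:107296409-107296678, plus strand, with matches that begin at bases 1 and 12 of the transcript. Il6st lies at chr13:112463820-112464089, plus strand. A match describes these letters and shows no binding.
Socs3: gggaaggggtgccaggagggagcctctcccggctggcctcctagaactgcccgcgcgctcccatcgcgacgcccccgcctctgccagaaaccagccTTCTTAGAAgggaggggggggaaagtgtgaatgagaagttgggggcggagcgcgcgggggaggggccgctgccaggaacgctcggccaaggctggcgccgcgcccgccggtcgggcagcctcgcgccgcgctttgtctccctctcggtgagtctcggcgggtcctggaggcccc
Cish: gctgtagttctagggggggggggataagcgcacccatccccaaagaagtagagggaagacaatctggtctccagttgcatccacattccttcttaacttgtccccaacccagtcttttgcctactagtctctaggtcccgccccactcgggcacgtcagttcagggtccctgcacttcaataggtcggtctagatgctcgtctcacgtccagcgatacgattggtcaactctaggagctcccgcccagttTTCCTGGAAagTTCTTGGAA
Il6st: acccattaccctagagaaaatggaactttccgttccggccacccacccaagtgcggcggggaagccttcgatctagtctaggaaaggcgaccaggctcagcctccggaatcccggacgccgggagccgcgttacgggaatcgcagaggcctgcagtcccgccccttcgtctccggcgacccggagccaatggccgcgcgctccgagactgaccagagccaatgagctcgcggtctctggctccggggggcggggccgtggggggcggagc

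The comparison of HF with MAZ1310 asked how the drug altered this pathway in cells that were receiving IL-6. At 6 h, 7 of the 10 genes were higher with HF than with MAZ1310: Il6st, Stat3, Jak2, Socs1, Socs3, Cish and Pim1, by 0.46 to 0.85 on the log2 scale, or 1.37-fold to 1.80-fold. Over all genes 5.22% were called higher in that comparison. The 10 genes were chosen with earlier results of these data known, so the shares over all genes describe and do not test them. At 3 h only Il6ra of the 10 was called, 1.92-fold higher with HF, where 2.83% of all genes were called higher, and 3 of the 10 had an unadjusted p under 0.05. The median log2 difference of the 10 genes was 0.01 at 3 h and 0.55 at 6 h, beside 0.03 and 0.02 over all genes. Calls are those of limma at 0.05 after Benjamini-Hochberg adjustment across the 18193 genes, and differences are log2 values ± SE with 3 arrays a group.

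In 8 of the 10 genes every HF array at 6 h lay above every MAZ1310 array, as in 16.4% of all genes. With the replicate number as a block the same 7 genes were called at 6 h. With that block plus the actin covariate 2 were called, Il6st (0.73, adjusted p = 0.00755) and Pim1 (0.68, adjusted p = 0.0492). The other 5 kept their direction, Socs3 at 0.62 (adjusted p = 0.0576), Socs1 at 0.47 (0.0580), Stat3 at 0.41 (0.187), Jak2 at 0.37 (0.397) and Cish at 0.33 (0.340). Over all 18193 genes the same fit called 327 higher at 6 h, against 949 without block and covariate. At 3 h it ended the Il6ra call with a difference of 1.00 (adjusted p = 0.129). Without the 4 arrays numbered 2, which had the highest actin difference of each group, 5 of the 10 were called at 6 h, with 560 of all genes called higher. Jak2 (0.66, adjusted p = 0.119) and Cish (0.45, adjusted p = 0.0519) were not called, at nearly the differences of the full fit.

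**Figure D1:**
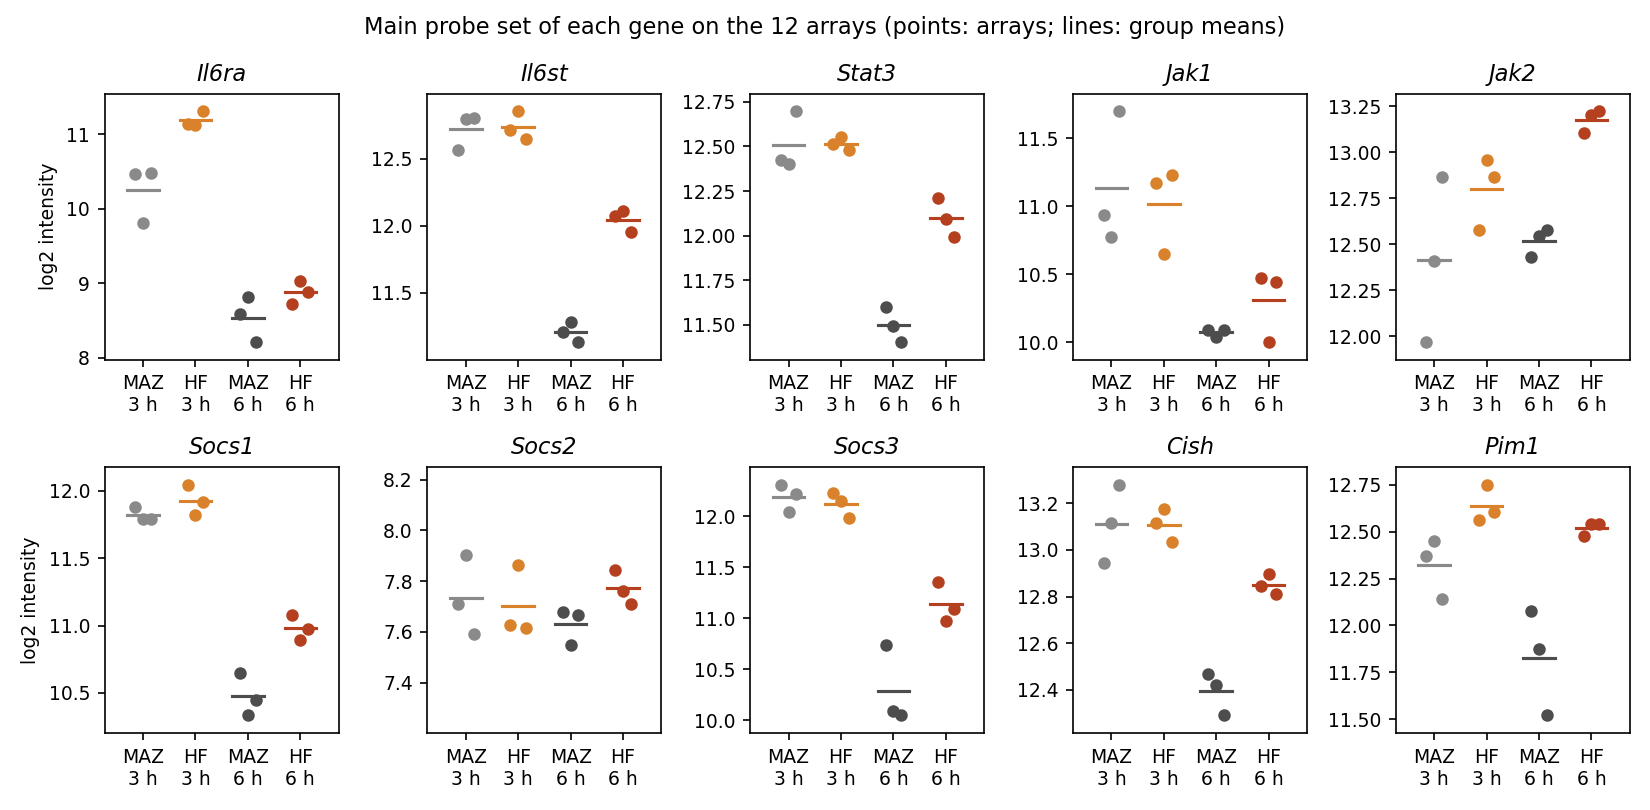
Log2 intensity of the main probe set of each gene on the 12 arrays, by compound and time (MAZ, MAZ1310), with points for arrays and lines for means of 3 arrays; each panel has its own axis. In the Il6st, Stat3, Socs1, Socs3 and Cish panels the 6 h HF points lie between the 6 h MAZ1310 points and the 3 h means.

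Of the receptor chains, Il6ra, the subunit that binds IL-6, was at 10.47, 9.81 and 10.48 log2 intensity with MAZ1310 at 3 h and at 11.14, 11.13 and 11.31 with HF. At 6 h it was at 8.58, 8.81 and 8.22 with MAZ1310 and at 8.73, 9.04 and 8.88 with HF. The groups stood apart at 3 h and overlapped at 6 h, where both were far below their 3 h levels. The 3 h difference was 0.94 ± 0.17 (adjusted p = 0.00219) and the 6 h difference 0.34 ± 0.17 (95% interval -0.02 to 0.70, adjusted p = 0.215), and at both times 3 of 3 same-numbered pairs had the HF array higher. The second Il6ra probe set gave 0.23 (adjusted p = 0.512) at 3 h, so the call rests on one of 2 probe sets.

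Il6st, the gp130 chain, was at 12.57, 12.80 and 12.80 with MAZ1310 and at 12.71, 12.85 and 12.65 with HF at 3 h. At 6 h it was at 11.21, 11.28 and 11.13 with MAZ1310 and at 12.08, 12.11 and 11.95 with HF. The 3 h groups overlapped, while at 6 h the lowest HF array stood above the highest MAZ1310 array by more than either group's range. The difference was 0.02 ± 0.09 (95% interval -0.18 to 0.21) at 3 h and 0.84 ± 0.09 (adjusted p = 1.08e-05) at 6 h, and all 4 Il6st probe sets were called at 6 h (0.55 to 0.84). At 3 h its probe sets disagreed in sign, from -0.34 to 0.51, with none called and the lowest adjusted p at 0.139.

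The Janus kinases differed from each other. Jak2, a gp130 kinase that also serves the erythropoietin receptor, was at 12.43, 12.54 and 12.58 with MAZ1310 at 6 h and at 13.10, 13.20 and 13.22 with HF. The groups did not overlap, and the difference was 0.66 ± 0.16 (adjusted p = 0.0102), from 0.64 to 0.67 in the 3 pairs. At 3 h the MAZ1310 arrays ranged from 11.97 to 12.87 and overlapped the HF arrays, at 12.58 to 12.96, for a difference of 0.38 ± 0.16 (adjusted p = 0.178). That 3 h difference was 0.61 (adjusted p = 0.00876) without MAZ1310 replicate 3, the highest of its group. Both Jak2 probe sets were called at 6 h.

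Jak1, the main kinase of gp130, was at 10.09, 10.04 and 10.09 with MAZ1310 at 6 h and at 10.48, 10.00 and 10.44 with HF. One HF array lay below all MAZ1310 arrays, and the difference was 0.23 ± 0.20 (95% interval -0.20 to 0.67, adjusted p = 0.526). At 3 h it was -0.12 ± 0.20, with arrays from 10.78 to 11.70 with MAZ1310 and 10.65 to 11.23 with HF. No Jak1 probe set of 3 was called in either comparison, with the lowest adjusted p at 0.101 at 6 h.

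Stat3, the transcription factor of the pathway, was at 12.42, 12.40 and 12.70 with MAZ1310 and at 12.51, 12.55 and 12.48 with HF at 3 h. At 6 h it was at 11.60, 11.50 and 11.41 with MAZ1310 and at 12.21, 12.09 and 11.99 with HF. The groups overlapped at 3 h and stood apart at 6 h. The 3 h difference was 0.01 ± 0.09 (95% interval -0.19 to 0.21) and the 6 h difference 0.60 ± 0.09 (adjusted p = 0.000342), from 0.59 to 0.61 in the 3 pairs. Of 4 Stat3 probe sets 3 were called at 6 h, and the other gave 0.38 (adjusted p = 0.207). These are transcript levels, and the phosphorylation that activates STAT3 was not measured.

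**Figure D2:**
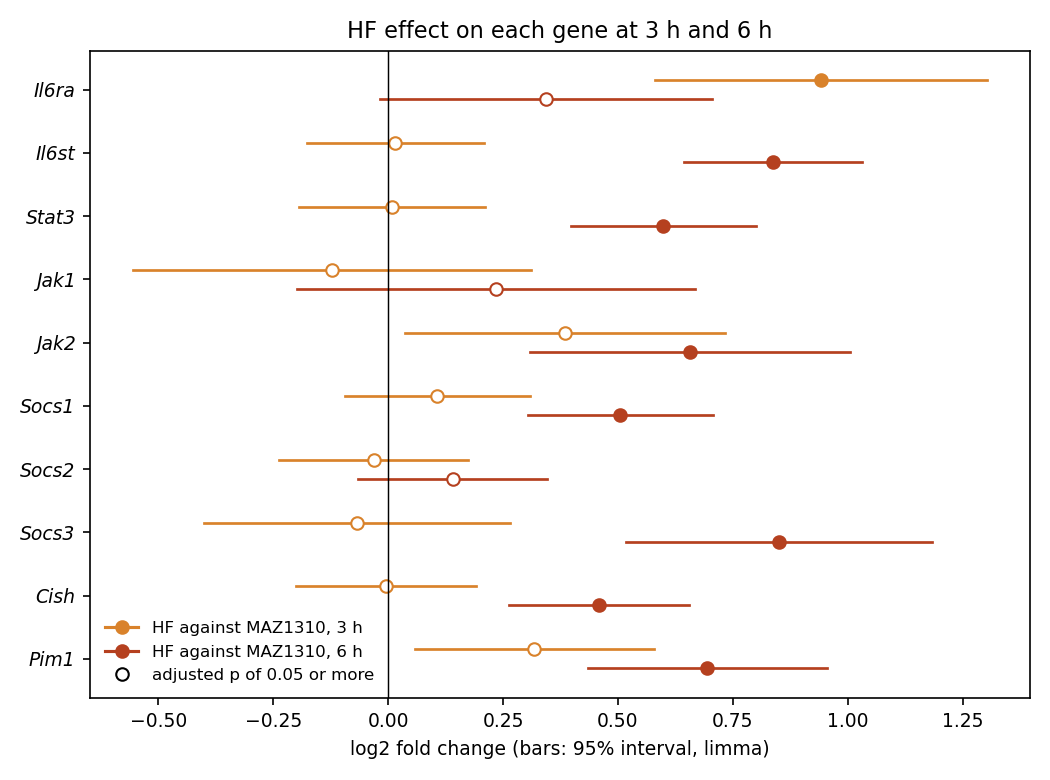
Log2 fold change of HF against MAZ1310 for each gene at 3 h and 6 h, with 95% intervals from limma (3 arrays a group); open points did not pass an adjusted p of 0.05. The 7 called genes at 6 h lie between 0.46 and 0.85, and at 3 h Il6ra alone is filled, at 0.94.

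The SOCS genes encode inhibitors that dock on cytokine receptors or their kinases. Socs3, which binds gp130 with its kinases, was at 12.31, 12.04 and 12.22 with MAZ1310 and at 12.23, 12.15 and 11.99 with HF at 3 h. At 6 h it was at 10.74, 10.09 and 10.05 with MAZ1310 and at 11.36, 10.97 and 11.09 with HF. The 3 h groups overlapped, and at 6 h the lowest HF array lay above the highest MAZ1310 array, replicate 1. The difference was -0.07 ± 0.16 (95% interval -0.40 to 0.27) at 3 h and 0.85 ± 0.16 (adjusted p = 0.00115) at 6 h. All 3 Socs3 probe sets were called at 6 h, at 0.85 to 0.99.

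Socs1, a direct inhibitor of Janus kinase activity, was at 10.65, 10.33 and 10.45 with MAZ1310 at 6 h and at 11.08, 10.89 and 10.97 with HF. The groups did not overlap, and the difference was 0.51 ± 0.09 (adjusted p = 0.00131). At 3 h the arrays lay within 11.79 to 12.04 over both compounds (0.11 ± 0.09, 95% interval -0.09 to 0.31). Socs1 had 1 probe set, of a type that can detect several transcripts.

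Cish, the SOCS family member known as a STAT5 target, was at 12.47, 12.42 and 12.29 with MAZ1310 at 6 h and at 12.84, 12.90 and 12.81 with HF. The groups did not overlap, and the difference was 0.46 ± 0.09 (adjusted p = 0.00219). At 3 h the arrays of both compounds lay within 12.94 to 13.28 (-0.01 ± 0.09, 95% interval -0.20 to 0.19).

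Socs2, an inhibitor best known from growth hormone signalling, did not pass at either time. Its main probe set was at 7.55 to 7.68 with MAZ1310 and 7.71 to 7.84 with HF at 6 h, which did not overlap, for a difference of 0.14 ± 0.10 (95% interval -0.06 to 0.35, adjusted p = 0.4). At 3 h both groups lay within 7.59 to 7.90 (-0.03 ± 0.10). Of 6 Socs2 probe sets limma called 0 at either time, with 1 at an unadjusted p under 0.05 at each.

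Pim1 encodes a survival kinase that STAT3 and STAT5 induce. It was at 12.08, 11.88 and 11.52 with MAZ1310 at 6 h and at 12.48, 12.54 and 12.54 with HF, groups that did not overlap. The difference was 0.69 ± 0.12 (adjusted p = 0.000797), and the second Pim1 probe set gave 0.95. At 3 h the groups did not overlap either, with MAZ1310 at 12.14 to 12.45 and HF at 12.56 to 12.75, as in 11.2% of all genes for higher HF arrays. That difference was 0.32 ± 0.12 (adjusted p = 0.128).

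**Figure D3:**
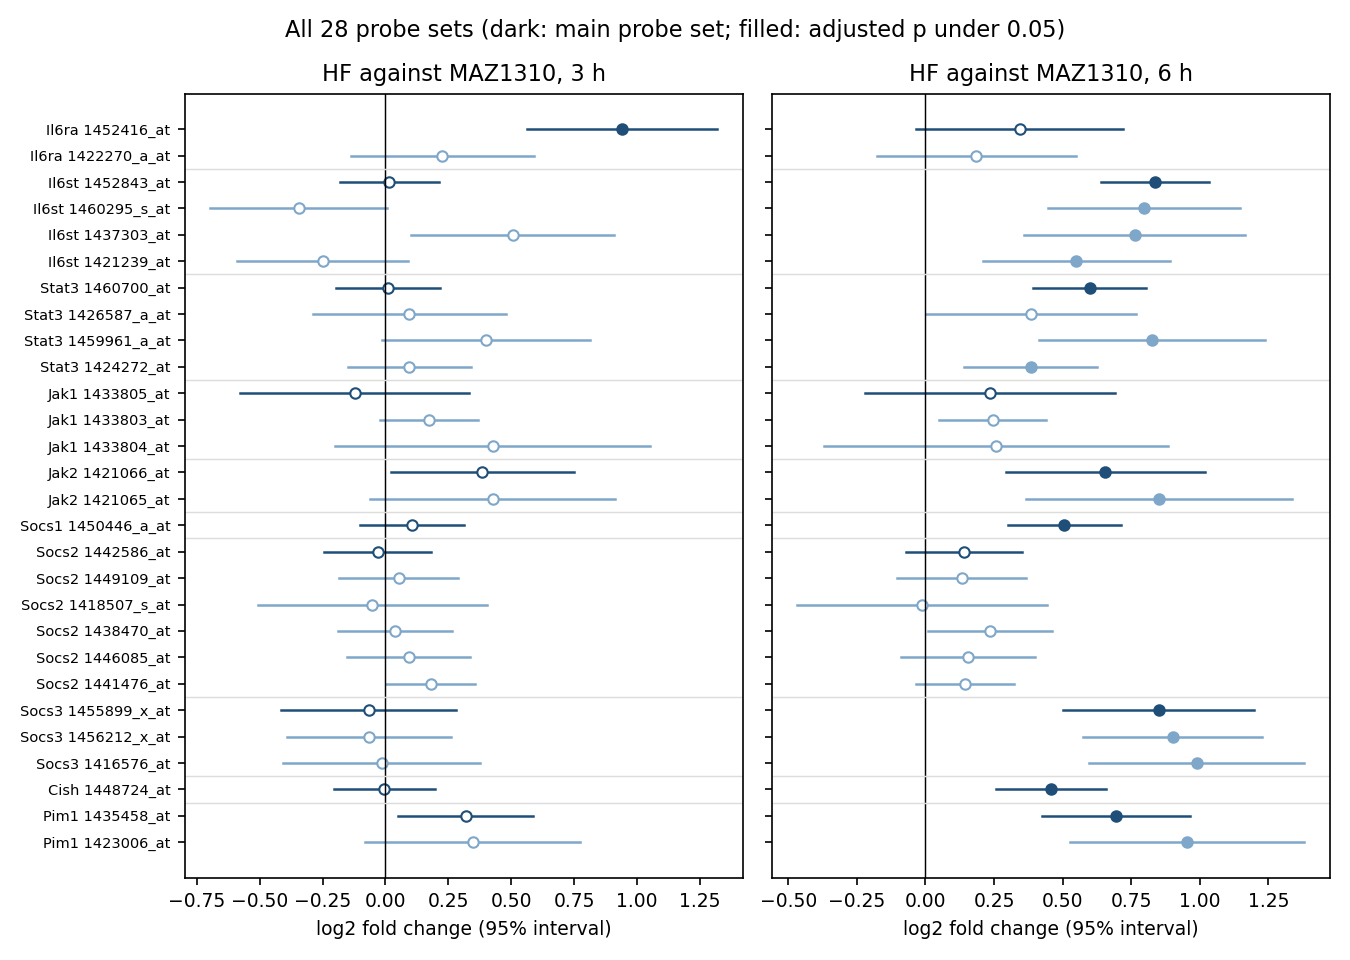
Log2 fold change of HF against MAZ1310 with 95% intervals for all 28 probe sets at 3 h and 6 h, ordered within each gene by brightness; dark marks the main probe set and filled points had an adjusted p under 0.05 over all probe sets. At 6 h 27 of 28 points lie above 0 and 16 are filled, against 19 and 1 at 3 h.

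The change from 3 h to 6 h was examined with each compound. With MAZ1310, 8 of the 10 genes fell, where 7.64% of all genes were called lower, and Jak2 (0.10 ± 0.16) and Socs2 (-0.10 ± 0.10) were not called. Socs3 fell by 1.90 ± 0.16 (adjusted p = 7.93e-07), Il6ra by 1.71 ± 0.17, Il6st by 1.51 ± 0.09 and Socs1 by 1.34 ± 0.09. Jak1 fell by 1.06 ± 0.20, Stat3 by 1.01 ± 0.09, Cish by 0.72 ± 0.09 and Pim1 by 0.50 ± 0.12. The Pim1 call ended with block and actin covariate (-0.49, adjusted p = 0.0837) and without the arrays numbered 2 (-0.46, adjusted p = 0.0964).

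With HF, 6 of the 10 fell over the same time, where 7.27% of all genes were called lower. Il6ra fell by 2.31 ± 0.17 (adjusted p = 5.33e-07), Socs3 by 0.98 ± 0.16, Socs1 by 0.95 ± 0.09, Jak1 by 0.71 ± 0.20, Il6st by 0.69 ± 0.09 and Stat3 by 0.42 ± 0.09. Cish, at -0.26 ± 0.09 (adjusted p = 0.0766), and Pim1, at -0.12 ± 0.12 (adjusted p = 0.641), did not pass. Jak2 stood at 0.37 ± 0.16 (adjusted p = 0.157) and was called with the replicate block (0.37, adjusted p = 0.0455). Without MAZ1310 replicate 1 or 3 at 3 h, which changes only the shared estimate of spread, Jak2 and Cish were called too (adjusted p from 0.0338 to 0.0476), as they were in a fit of the 6 HF arrays alone (adjusted p = 0.0301 and 0.0387). Cish was also called with cyclic loess (-0.34, adjusted p = 0.00883). The Jak1 call ended without HF replicate 1 or 3 at 3 h or HF replicate 2 at 6 h (-0.63 to -0.55, adjusted p = 0.112 to 0.131), without the arrays numbered 1 (-0.71, adjusted p = 0.198), and with block and actin covariate (-0.76, adjusted p = 0.0532). The Stat3 call ended without the arrays numbered 2 (-0.40, adjusted p = 0.0869) and with block and actin covariate (-0.25, adjusted p = 0.409).

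**Figure D4:**
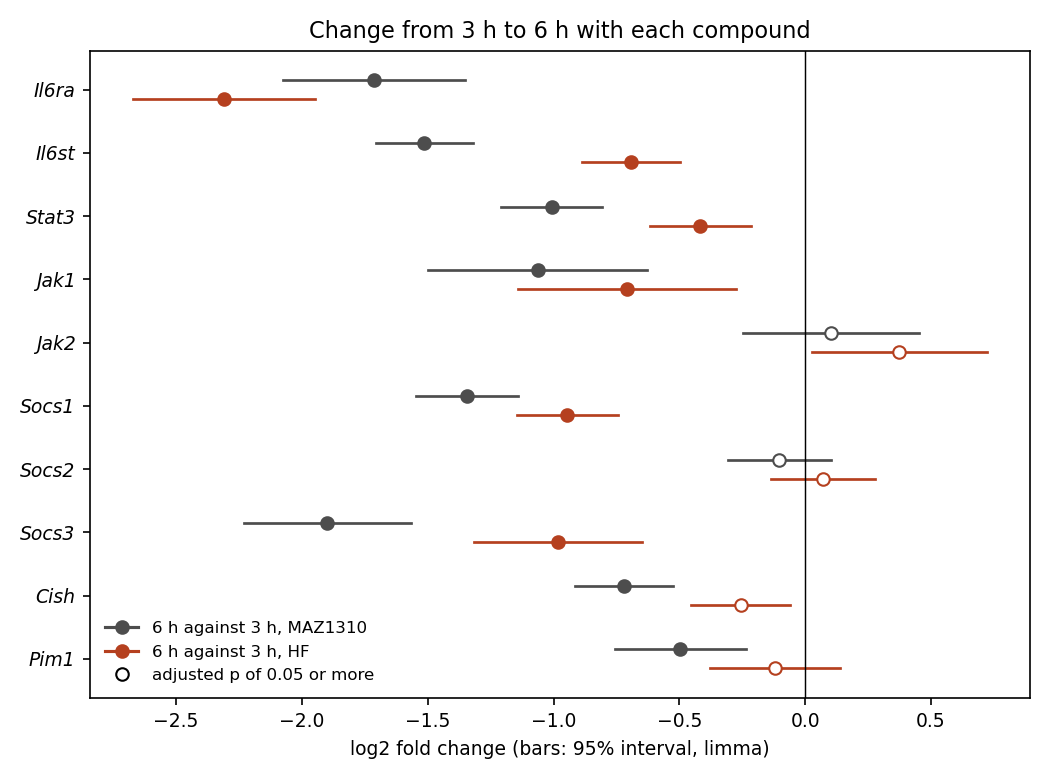
Log2 fold change from 3 h to 6 h with MAZ1310 and with HF for each gene, with 95% intervals from limma (3 arrays a group); open points did not pass an adjusted p of 0.05. Il6st lies at -1.51 with MAZ1310 and -0.69 with HF, Socs3 at -1.90 and -0.98, and Il6ra at -1.71 and -2.31.

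The difference between the compounds in this change, which is also the HF effect at 6 h minus that at 3 h, was tested directly. Of the 10 genes 3 passed, where 0.885% of all genes were called in that direction. Il6st had a difference of 0.82 ± 0.13 (adjusted p = 0.00465), Socs3 of 0.92 ± 0.22 (adjusted p = 0.0485) and Stat3 of 0.59 ± 0.13 (adjusted p = 0.0369), so with HF these genes fell less. The comparisons share arrays, as the MAZ1310 arrays at 6 h enter both the HF effect at 6 h and the change with MAZ1310. The call for Il6st held without any 1 array and ended when all arrays of 1 replicate number were left out (0.75 to 0.87, adjusted p = 0.0785 to 0.0831). With all probe sets as separate rows, its main probe set (adjusted p = 0.0128) and another (1.14, adjusted p = 0.0391) were called by limma. The other Il6st probe sets were not, at 0.80 (adjusted p = 0.137) and 0.26 (adjusted p = 0.850). The Stat3 call ended without MAZ1310 replicate 2 or 3 at 6 h, any HF array at 3 h, or HF replicate 1 or 2 at 6 h (0.53 to 0.61, adjusted p = 0.0513 to 0.113). The Socs3 call ended without any HF array, MAZ1310 replicate 1 or 3 at 3 h, or MAZ1310 replicate 2 or 3 at 6 h (0.80 to 1.00, adjusted p = 0.0624 to 0.142). With probe sets of a gene averaged, Stat3 (0.40, adjusted p = 0.175) and Socs3 (0.96, adjusted p = 0.0509) were not called, and with cyclic loess Socs3 was not (0.85, adjusted p = 0.0924). On all probe sets as separate rows neither was called (adjusted p = 0.0699 for Stat3 and 0.0917 for Socs3), nor was Socs3 on its unsuffixed probe set (1.00, adjusted p = 0.0618). Without all arrays of 1 number the Stat3 call ended for each number (0.48 to 0.66, adjusted p = 0.178 to 0.232), and the Socs3 call for number 2 (0.99, adjusted p = 0.234) and number 3 (0.74, adjusted p = 0.360).

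Socs1 had a difference of 0.40 ± 0.13 (adjusted p = 0.171, or 0.0496 when blocked by replicate) and Cish of 0.46 ± 0.13 (adjusted p = 0.0905), called without MAZ1310 replicate 1 at 3 h (0.55, adjusted p = 0.0259). Il6ra was the one gene with a negative value, at -0.60 ± 0.24 (95% interval -1.11 to -0.09, adjusted p = 0.283). Pim1 (0.38 ± 0.17), Jak1 (0.36 ± 0.29), Jak2 (0.27 ± 0.23) and Socs2 (0.17 ± 0.14) did not pass.

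Around these genes, 66 of 72 other genes of cytokine signalling through STATs were measured, in 9 lists. The lists too were chosen with earlier results of these data known. At 6 h 19 were called higher with HF and 3 lower, with a median of 0.15 beside 0.02 over all genes; at 3 h 10 were higher and 6 lower. Over all genes 5.22% were called higher and 11.7% lower at 6 h, and 2.83% and 6.66% at 3 h. The same shares apply to the counts of each list below. With block and actin covariate the counts higher and lower among the 66 were 5 and 2 at 6 h, and 1 and 2 at 3 h. Of the genes named below, Cblb, Fos, Junb, Myc, Il21r and Maf kept their 6 h calls and Il21r and Il12rb1 their 3 h calls. The 6 h counts were 11 and 2 without the arrays numbered 1. At 3 h 5 were higher and 6 lower without HF replicate 2, and without the arrays numbered 1, 2 or 3 the counts were 3 and 6, 5 and 3, and 5 and 4. With cyclic loess 13 were higher and 5 lower at 3 h.

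Among 9 measured cytokines of the IL-6 and related families, 3 were called at 6 h, all higher, and 2 at 3 h, one in each direction. Lif, which signals through gp130, was higher by 0.57 ± 0.13 at 3 h and 0.76 ± 0.13 (adjusted p = 0.000528) at 6 h. Osm, another gp130 cytokine, was higher by 0.42 ± 0.08 at 6 h and Il23a, the IL-23 subunit that sustains Th17 cells, by 0.33 ± 0.09. Without the arrays numbered 1 the Osm call ended (0.41, adjusted p = 0.0543), as did the 3 h Lif call (0.52, adjusted p = 0.0516). The 3 h Lif call also ended without the arrays numbered 3 (0.58, adjusted p = 0.0721). The Il23a signal was dim, with group means of 5.99 to 6.34 log2 intensity, below every array median. A cut at 5.97 marked the dimmest 25% of genes. The Il23a call ended without MAZ1310 replicate 1 or 3 or HF replicate 1 or 3 at 6 h (0.27 to 0.32, adjusted p = 0.0548 to 0.108). Clcf1 was lower by 0.62 ± 0.09 at 3 h (adjusted p = 0.00072), a call that ended on its brightest unsuffixed probe set (-0.37, adjusted p = 0.0911), and its HF effect changed by 0.62 ± 0.13 from 3 h to 6 h (adjusted p = 0.0292). That change ended as a call without any MAZ1310 array at 6 h, MAZ1310 replicate 2 or HF replicate 1 or 2 at 3 h, or HF replicate 2 or 3 at 6 h (0.56 to 0.66, adjusted p = 0.0519 to 0.0939).

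Of 8 measured genes in a list of other receptor chains that can act through STAT3, not all of them mainly so, 3 were called at each time. Of these 1 was higher at 3 h and 2 at 6 h. Il21r, the IL-21 receptor of Th17 and follicular helper cells, was lower with HF by 1.12 ± 0.11 (adjusted p = 1.19e-05) at 3 h and 0.63 ± 0.11 at 6 h. Il12rb2, a chain of the IL-12 receptor typical of Th1 cells, was higher by 1.02 ± 0.18 (adjusted p = 0.00102) at 6 h, and the change of its effect between times (0.94 ± 0.26, adjusted p = 0.0881) passed with the replicate block (adjusted p = 0.0117). That change also passed without MAZ1310 replicate 3 or HF replicate 2 at 3 h, or HF replicate 3 at 6 h (1.10 to 1.11, adjusted p = 0.0416 to 0.0479). Il10ra, of the IL-10 receptor, was higher by 0.67 ± 0.16 at 3 h and 0.55 ± 0.16 (adjusted p = 0.0256) at 6 h. Its 3 h call ended without MAZ1310 replicate 2 or HF replicate 1 or 2 (0.51 to 0.66, adjusted p = 0.051 to 0.0813), and its 6 h call without MAZ1310 replicate 2 or 3 or HF replicate 1 or 2 (0.41 to 0.58, adjusted p = 0.0541 to 0.146). With its probe sets averaged neither passed (0.28 and 0.27, adjusted p = 0.0817 and 0.0745). Il12rb1 was lower by 0.58 ± 0.16 at 3 h (adjusted p = 0.0372), a call that ended without MAZ1310 replicate 2 or 3 at 3 h, MAZ1310 replicate 2 at 6 h or any HF array at 3 h (-0.64 to -0.38, adjusted p = 0.052 to 0.156).

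Of 5 measured receptor chains that use the common gamma chain or act through STAT5, 1 was called at 3 h. This was Il4ra, of the IL-4 receptor, lower by 0.56 ± 0.09 (adjusted p = 0.00111), and the change of its effect between times was 0.52 ± 0.13 (adjusted p = 0.0577). This change passed with the replicate block (adjusted p = 0.024) and without MAZ1310 replicate 3 at 3 h (0.58, adjusted p = 0.0269). At 6 h limma called 0 of the 5, with 1 at an unadjusted p under 0.05, Il15ra at 0.31 ± 0.12 (adjusted p = 0.0875, 0.0322 with the replicate block and 0.0411 without HF replicate 2 at 3 h).

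Of 7 other Janus kinase and STAT genes limma called 0 at 3 h, with 3 at an unadjusted p under 0.05, and 1 at 6 h. Stat2, of the interferon pathway, was higher by 0.75 ± 0.21 at 6 h (adjusted p = 0.0182), a call that ended without MAZ1310 or HF replicate 1, MAZ1310 replicate 2 or HF replicate 3 at that time (0.59 to 0.71, adjusted p = 0.0643 to 0.104). Stat5a stood at -0.43 ± 0.16 at 3 h (adjusted p = 0.125, or 0.0294 when blocked by replicate), and at -0.67 (adjusted p = 0.00321) without MAZ1310 replicate 1. Its effect changed by 0.88 ± 0.23 from 3 h to 6 h (adjusted p = 0.0732, 0.0117 when blocked by replicate, and 0.00424 at 1.12 without that array). Of 4 other SOCS genes 1 was higher at both times, Socs4, by 0.51 ± 0.08 (adjusted p = 0.000699) at 3 h and 0.39 ± 0.08 at 6 h, while the change of the effect of Socs6 was 0.31 ± 0.17 (adjusted p = 0.511). The 6 h Socs4 call ended without the arrays numbered 1 (0.38, adjusted p = 0.0636).

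Of 11 phosphatase, PIAS and other brake genes, 3 were higher at 3 h, and 4 were higher and 1 lower at 6 h. Cblb, a ubiquitin ligase that restrains T cell activation, was higher by 0.44 ± 0.10 at 3 h and 0.79 ± 0.10 (adjusted p = 6.96e-05) at 6 h. Ptpn1, a phosphatase that acts on JAK2, was higher by 0.31 ± 0.08 and 0.45 ± 0.08, and Ptpn2, which acts on JAK1 and STATs, by 0.39 ± 0.09 at 3 h. The 3 h calls ended without HF replicate 1 or 2 for Cblb (0.38 to 0.39, adjusted p = 0.0617 to 0.0677), HF replicate 2 for Ptpn2 (0.30, adjusted p = 0.0535), and MAZ1310 replicate 1 or 2 or HF replicate 2 or 3 for Ptpn1 (0.27 to 0.31, adjusted p = 0.0553 to 0.0754). On unsuffixed probe sets Ptpn2 (0.18, adjusted p = 0.361) and Ptpn1 (0.24, adjusted p = 0.275) were not called at 3 h. Sh2b3, an adaptor that inhibits JAK2, was higher by 0.53 ± 0.10 at 6 h (change between times 0.41 ± 0.14, adjusted p = 0.172), and Ptpn6, the phosphatase SHP-1, was lower by 0.46 ± 0.08. The Ptpn6 call ended without the arrays numbered 1 (-0.38, adjusted p = 0.0656).

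Of 18 measured genes listed as known STAT3 targets in T cells or other cells, 6 were called at 3 h, of which 4 were higher. At 6 h 8 were called, of which 7 were higher. Whether STAT3 acted on them in these cultures was not measured. At 6 h Fos, of the AP-1 factors, was higher by 0.98 ± 0.14, Junb by 0.85 ± 0.09 (adjusted p = 6.88e-06) and Myc, a driver of growth, by 0.79 ± 0.11. Maf, a transcription factor that controls IL-10 and IL-21 in helper T cells, was lower by 0.89 ± 0.17 at 6 h and by 0.77 ± 0.17 at 3 h, where its call ended without HF replicate 1 (-0.60, adjusted p = 0.0551). At 3 h Fos was higher by 0.63 ± 0.14 and Batf, an AP-1 partner needed for Th17 cells, by 0.49 ± 0.10, and Batf was higher by 0.75 ± 0.10 (adjusted p = 8.06e-05) at 6 h. The 3 h calls ended without the arrays numbered 1 (Fos 0.68, adjusted p = 0.0724, and Batf 0.51, adjusted p = 0.0651) or 3 (Fos 0.61, adjusted p = 0.0553, and Batf 0.39, adjusted p = 0.0956). Bcl2, the survival gene, was lower by 0.46 ± 0.12 at 3 h, a call that ended without MAZ1310 replicate 1 (-0.42, adjusted p = 0.0596) or HF replicate 3 (-0.31, adjusted p = 0.0912), and with cyclic loess (-0.39, adjusted p = 0.0748). Its effect changed by 0.62 ± 0.17 (adjusted p = 0.082, 0.0201 when blocked by replicate, and 0.0496 at 0.74 without HF replicate 1 at 3 h).

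Of the other Pim kinases, Pim3 was higher by 0.56 ± 0.11 at 6 h (adjusted p = 0.00177) and Pim2 stood at -0.20 ± 0.10 (adjusted p = 0.288) at 3 h. The Pim3 effect changed by 0.67 ± 0.15 (adjusted p = 0.0409), a call that ended without any of 9 single arrays, all but MAZ1310 replicate 1 at either time and HF replicate 2 at 3 h (0.59 to 0.70, adjusted p = 0.0666 to 0.121). It also ended with probe sets averaged (0.49, adjusted p = 0.0565) and with all probe sets as separate rows (adjusted p = 0.0775). Without all arrays of 1 number it ended for each number (0.55 to 0.74, adjusted p = 0.155 to 0.322). Of the proteases that release the IL-6 receptor from the cell, Adam10 stood at 0.27 ± 0.09 at 3 h and 0.24 ± 0.09 at 6 h (adjusted p = 0.0733 and 0.0847), and with the replicate block it was called at both times (adjusted p = 0.0362 and 0.0451). For Adam17 the effect changed by -0.06 ± 0.13 between times (adjusted p = 0.933).

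**Figure D5:**
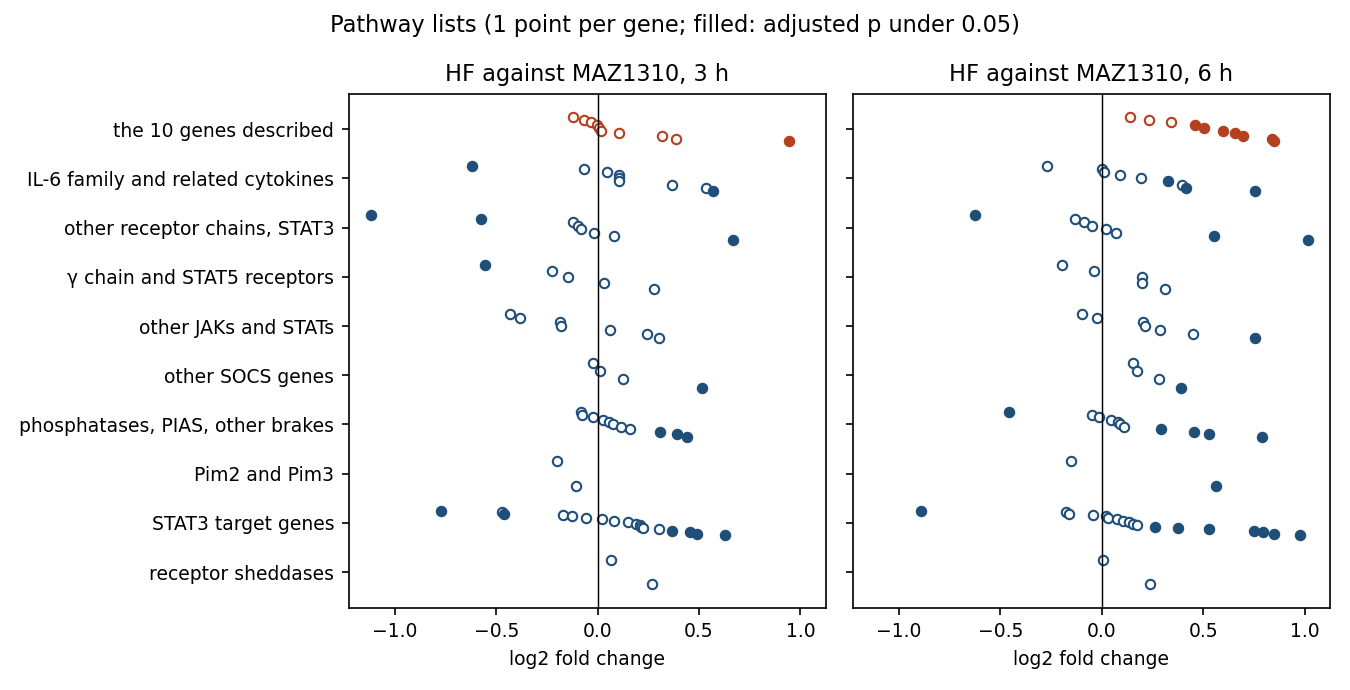
Log2 fold change of HF against MAZ1310 at 3 h and 6 h for the 10 genes described and for 66 other genes in 9 lists, 1 point per gene; filled points had an adjusted p under 0.05 in limma. At 6 h all 10 points of the top row lie above 0, with only 7 of them filled. The rows of cytokines, other receptor chains and listed STAT3 targets spread to both sides.

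The genes whose log2 values, centred on their means, followed those of a member most closely over the 12 arrays were found by the root mean square difference among 18183 other genes. For Il6st, which varied by 0.631 about its mean by the same measure, they were Ssh2 (0.117), Gpr146 (0.14) and Per2 (0.144). For Socs3, which varied by 0.804, they were Ifi47 (0.184), Cytip (0.200) and Stap1 (0.203). For Il6ra, which varied by 1.09, they were Trim34a (0.280), Trim30a (0.294) and Oas2 (0.298). The HF effects of these last genes, in that order, were 0.84, 0.72 and 0.73 at 3 h and 0.74, 0.77 and 0.54 at 6 h. Those of Il6ra were 0.94 at 3 h and 0.34 at 6 h. When each array was left out in turn, Ssh2, Per2, Ifi47 and Trim34a were among the nearest 3 genes in 12 of 12 cases, Gpr146 and Cytip in 11, Trim30a in 10, Oas2 in 9 and Stap1 in 6.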

How the data were processed

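Total RNA was extracted with Trizol, purified on columns, labelled with biotin and read on 1 array per sample, per the labels' protocols. The authors deposited RMA output as linear intensity for each probe set, per the submitters' processing notes, which give no version. RMA includes quantile normalization, which hides a shift of all transcripts, and values of different probe sets are not comparable levels.

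Here log2 was taken, and 1 probe set per gene kept, the brightest of those with a single symbol. All 28 probe sets of the members had an Entrez identifier with the same symbol in RefSeq. limma 3.58.1 in R 4.3.3 fitted 4 group means to 12 arrays, tested on simulated data first; adjusted p-values are limma's. Named were all members, up to 4 called genes of each list per HF contrast (or the largest change where none was called), and the 3 nearest genes of Il6ra, Il6st and Socs3. Members and lists were chosen with earlier results of these data known. HF and MAZ1310 arrays of one number and time deviated together from their group means (r = 0.242 to 0.391), so the numbers were taken to pair them. The main fit did not use this pairing, as the labels do not say what the numbers share, and the block was an alternative. Between times the same-numbered arrays gave r = 0.322 to 0.502 with HF and 0.0289 to 0.252 with MAZ1310, where number 3 was lowest, so pairing across times is not shown for every pair, and calls gained with the block in the change of the HF effect rest on a block that spans both times. Other fits used cyclic loess, left out dim genes, or took other choices of probe set, a replicate block, the actin covariate, only the arrays compared, or fewer arrays.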

Additional observations from a re-analysis of the deposited data

Results flagged for a closer look

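The HF effect differed between 3 h and 6 h, by limma's test of the difference itself, for 3 of the 10 genes: Il6st (0.82, adjusted p = 0.00465), Socs3 (0.92, adjusted p = 0.0485) and Stat3 (0.59, adjusted p = 0.0369). Among the genes named from the lists it differed for Clcf1 (0.62, adjusted p = 0.0292) and Pim3 (0.67, adjusted p = 0.0409). All 5 values are the 6 h effect minus the 3 h effect on the log2 scale. Each of these 5 calls ended in some of the alternative fits described above.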

How the results depend on the processing

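The number of called members stayed within 1.5 times its value under the alternatives run, with these exceptions. With replicate block plus actin covariate 0 members were called at 3 h and 2 at 6 h, while calls over all genes fell from 1726 to 419 and from 3085 to 910, and every member called without them kept its direction. With a gene's probe sets averaged, or with all probe sets as separate rows, 1 was called in the change of the HF effect. Leaving out arrays gave 1 to 2 at 3 h, 5 to 7 at 6 h, 0 to 3 in the change of the effect, 7 to 8 over time with MAZ1310 and 5 to 8 with HF. The replicate block alone called the same members at 3 h, at 6 h and over time with MAZ1310, added Socs1 to the change of the effect (0.40) and added Jak2 over time with HF (0.37). Among the 10 genes and Adam17, signs turned only where neither sign was called. At 3 h they turned with probe sets averaged for Il6st (-0.018), Jak1 (0.16) and Socs2 (0.047), with cyclic loess for Socs3 (0.0062) and Cish (0.058), and with block plus covariate for Il6st (-0.10) and Stat3 (-0.19). With probe sets averaged, Socs2 over time with MAZ1310 (0.055) and the Adam17 change (0.038) turned too. Leaving out arrays at 3 h gave -0.062 to 0.10 for Il6st, -0.062 to 0.12 for Stat3, -0.30 to 0.16 for Jak1, -0.11 to 0.052 for Socs2, -0.16 to 0.016 for Socs3 and -0.094 to 0.12 for Cish. It gave -0.12 to 0.33 for Jak2 and -0.19 to 0.022 for Socs2 over time with MAZ1310, -0.0039 to 0.16 for Socs2 over time with HF and -0.14 to 0.018 for the Adam17 change. The cause was not tested. With 3 arrays a group, precision is limited by their number.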
